A study of Mus musculus with 4 samples.

Results

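The 10 regulators that set epithelial identity across organs were followed in thymospheres, the free-floating aggregates that form when digested mouse thymus is grown in dishes to which cells do not attach. They are the transcription factor genes Trp63, Elf3, Elf5, Ehf, Grhl1, Grhl2, Grhl3, Ovol1 and Klf5 and the splicing factor gene Esrp1. All 10 were found on the array through the RefSeq accession that the array files give each probe, as 14 of 55681 probes and 10 of 21154 named genes. They were chosen by name and function, with earlier results of these data known. Adult spheres came from C57Bl6/N mice aged 5 to 6 weeks and embryonic spheres from C57Bl6/N embryos at embryonic day 14.5. Each group had 2 samples, each on its own 1-colour array, and the 4 arrays shared 1 slide. Both groups were grown for 7 days in the same medium, which held B27 supplement, hydrocortisone, insulin, EGF and bFGF, with fresh medium on day 5. The labels do not tell biological from technical replicates, so a p-value here reflects no more than the scatter of these samples, which may be technical, and array position on the slide cannot be told apart from group. The spheres were lysed whole, so they hold whatever cells of the digest lived on in them.

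Epithelial cells of most organs share a small set of regulators. Trp63 encodes p63, which maintains basal cells of stratified epithelia and of the thymus. Elf3, Elf5 and Ehf encode Ets family factors that are largely restricted to epithelia, the Grainyhead-like genes Grhl1, Grhl2 and Grhl3 encode activators of junction and barrier genes, Ovol1 encodes a zinc finger repressor of mesenchymal genes, and Klf5 encodes a Krüppel-like factor of proliferating epithelium. Esrp1 encodes an RNA-binding protein that directs epithelial splice choices, for example in Fgfr2. Zeb and Snail repressors act against this set in mesenchymal cells.

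Of the 8 factors that could be tested, 5 were higher in embryonic than in adult spheres, and none was lower. Klf5, Grhl1, Esrp1 and Grhl2 rose by 8.23-fold, 6.88-fold, 4.64-fold and 4.43-fold. A second Grhl2 probe went the other way but was not tested, and a second Esrp1 probe was not called. Elf3, which was not well above background on adult array 2, rose by 12.2-fold as read and by 7.05-fold with that reading raised to the dimmest detected probe of its array. The sizes depended on how background was treated, and with normexp correction the log2 fold changes were 1.81 for Klf5, 1.70 for Grhl1, 1.57 for Esrp1, 1.51 for Grhl2 and 1.19 for Elf3, all 5 still called. Trp63, Grhl3 and Ehf did not pass the test on the probes that stood for these genes, and Elf5 and Ovol1 were not detected on both arrays of a group and were not tested. Over all 13667 genes tested the same rule called 34.9% higher and 17.4% lower. Of all calls 66.7% were thus higher, a share that was 27.3% after centring the arrays on their tested genes and 85.3% after centring on all probes. The readings of both groups were fully separate in 7 of the 8 factors, and so they were in 82.2% of all genes tested (59.9% with the embryonic arrays higher). The median log2 fold change, always embryonic minus adult, was 2.18 over the 8 factors and 0.75 over all genes tested. A gene was called when its limma p, adjusted over all genes tested, was under 0.05, and no factor had an unadjusted p under this threshold in the downward direction. Elf3, like other genes detected on both embryonic but not both adult arrays, entered the test only through the group where it was high. With detection on all 4 arrays required, 4 of 7 factors and 4993 of 9626 genes were called higher. Signals are given as log2 of the processed signal relative to the 75th percentile of the same array, so that 0 is the level of that percentile. No gene was called at all when either adult array was left out, which left 1 array in that group. Without adult array 1 the log2 fold changes of the 5 factors ran from 2.22 (Esrp1) to 4.64 (Elf3), beside a median of 0.70 over all genes. Without adult array 2 they ran from 1.87 (Grhl2) to 2.57 (Elf3), beside a median of 0.78.

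The arrays differed in how many probes they detected. The scanner software marked 70.9% and 44.3% of probes on adult arrays 1 and 2, and 47.1% and 34.4% on embryonic arrays 1 and 2, as well above background, its detection mark. Receptor genes of smell and taste, which are mostly restricted to sensory cells, had 1507 probes, and the adult arrays detected 51.4% and 23.2% of them against 6.10% and 2.26% for the embryonic arrays. All 7 listed epithelial markers were detected in both groups, with Foxn1, the master regulator of thymic epithelium, detected on a single adult array. Their summed level was 208 and 145 times the 75th percentile in adult and 432 and 610 times in embryonic spheres. The brightest of the 7 in this sum was Krt18, at 7.30 and 6.78 in adult and 8.11 and 8.39 in embryonic spheres. The markers did not all move alike: 5 were called higher, Krt14 was called lower (log2 fold change -1.91) and Epcam was not called. All 8 fibroblast markers were detected on all 4 arrays, with summed levels of 427 and 525 in adult and 878 and 506 in embryonic spheres. In such whole spheres fewer epithelial cells and less RNA per epithelial cell cannot be told apart.

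**Figure D1:**
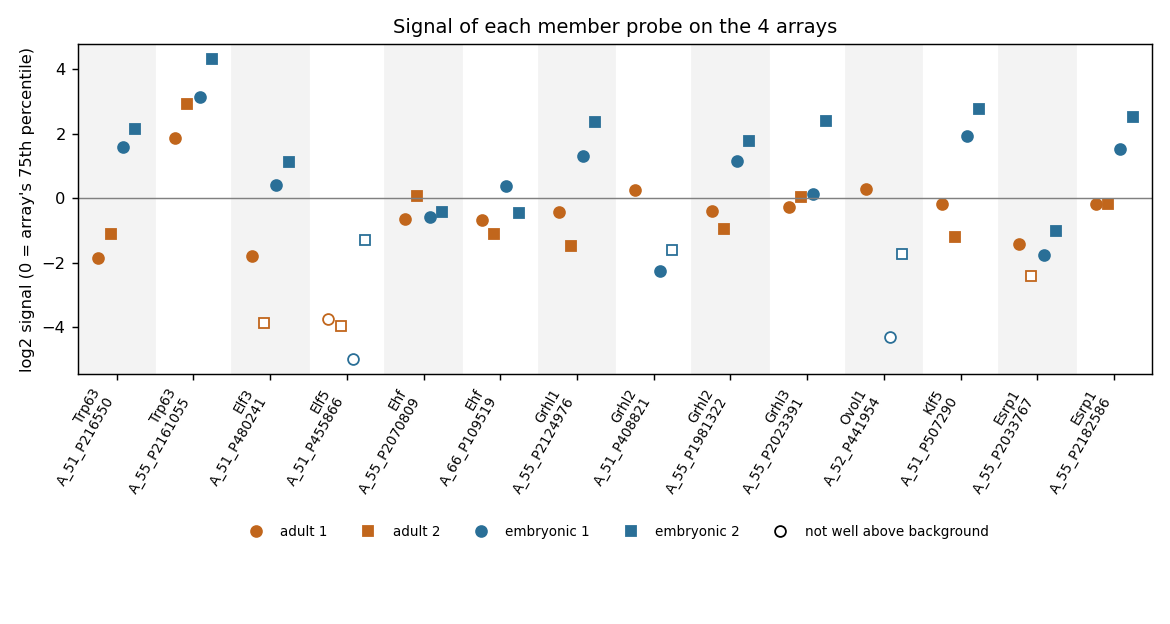
Log2 signal of the 14 probes of the 10 factors, relative to the 75th percentile of each array, with 1 point for each of the 4 arrays and open points where the probe was not well above background. Elf3, Klf5, Grhl1, the brighter Grhl2 probe, the brighter Esrp1 probe and both Trp63 probes lie higher on both embryonic arrays than on either adult array. So do Grhl3 and the dimmer Ehf probe, by a small margin, and neither was called. Missing are 2 spots of adult array 2 that the software marked as outliers.

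Of the 2 Ets factors tested, Elf3 was called. Its signal was -1.80 and -3.87 in adult spheres, the second of these not well above background, and 0.42 and 1.12 in embryonic spheres. Both embryonic arrays lay above both adult arrays, and the log2 fold change was 3.60 (SE 0.74, 95% interval 1.72 to 5.49, adjusted p = 0.0177 in limma). This size rests on the dim adult reading, and with that reading raised to the floor of its array, a step chosen after seeing the data, the value was 2.82 (SE 0.39, adjusted p = 0.0232). With normexp correction it was 1.19 (adjusted p = 0.0191). Without adult array 2 the log2 fold change was 2.57, and without embryonic array 2 it was 3.26 and no longer called (adjusted p = 0.0573). Ehf, the other Ets factor tested, showed no such difference on the probe that stood for it. It read -0.65 and 0.06 in adult and -0.59 and -0.42 in embryonic spheres, so the groups overlapped, and the log2 fold change was -0.21 (SE 0.36, 95% interval -1.13 to 0.71, adjusted p = 0.629). Its sign was positive in 7 of 19 alternatives. A second Ehf probe gave 0.86 (SE 0.44, adjusted p = 0.147 over all probes). Elf5, known above all from mammary gland and placenta, read -3.75 and -3.97 in adult and -4.99 and -1.29 in embryonic spheres and was not well above background on any of the 4 arrays.

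The Grainyhead-like genes were marked as detected in both groups, though the adult arrays also marked 51.4% and 23.2% of the sensory receptor probes. Grhl1 read -0.41 and -1.48 in adult and 1.30 and 2.37 in embryonic spheres, without overlap, and rose by 2.78 (SE 0.55, adjusted p = 0.0166). Grhl2, which sustains Cdh1 and other junction genes, read -0.39 and -0.94 in adult and 1.17 and 1.79 in embryonic spheres and rose by 2.15 (SE 0.38, adjusted p = 0.014). Its groups were also separate, and the 2 adult arrays lay 0.55 apart. A second Grhl2 probe went the other way on the arrays that measured it. Its signal was 0.24 in adult sample 1 and -2.24 and -1.60 in embryonic spheres, the last not well above background. Its spot on adult array 2 was marked as an outlier, and it was not tested. With outlier spots kept, its processed signal was 150 and 94.8 in adult spheres, well above background on both arrays. In embryonic spheres it was 23.8 and 18.2. The sensory receptor probes share this pattern, and their part in it was not tested. The rise of Grhl2 thus holds only for the probe that stood for it. Grhl3, known for epidermal barrier formation and neural tube closure, read -0.27 and 0.05 in adult and 0.14 and 2.39 in embryonic spheres. One embryonic array was thus close to the adult level, the embryonic arrays lay 2.25 apart, and the difference of 1.38 (SE 0.76, 95% interval -0.57 to 3.33) did not pass the test (adjusted p = 0.174). Without embryonic array 1 it passed (log2 fold change 2.50, adjusted p = 0.0195), and without embryonic array 2 the value was 0.25.

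RefSeq promoter sequences of the build GRCm38.p6 were at hand for Elf3, Elf5, Grhl1 and Grhl3, with 2 start sites each for Elf5 and Grhl1. The 250 bases before the start are shown for Elf3 and Grhl1, which rose, and for Grhl3, which did not pass the test, to set the called and uncalled genes side by side. Capitals mark CACCTG, the E-box letters bound by Zeb and Snail repressors, and CACCC, letters of the Klf family motif, each searched on both strands. The Elf3 sequence lies at chr1:135258473-135258722 on the minus strand, that of Grhl1 (upstream start) at chr12:24572037-24572286 on the plus strand and that of Grhl3 at chr4:135573633-135573882 on the minus strand.
Elf3: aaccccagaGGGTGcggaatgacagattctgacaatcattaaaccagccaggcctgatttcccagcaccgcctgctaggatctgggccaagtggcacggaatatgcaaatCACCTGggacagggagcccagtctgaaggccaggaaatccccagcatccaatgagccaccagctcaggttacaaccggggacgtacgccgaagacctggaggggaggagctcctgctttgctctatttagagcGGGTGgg
Grhl1: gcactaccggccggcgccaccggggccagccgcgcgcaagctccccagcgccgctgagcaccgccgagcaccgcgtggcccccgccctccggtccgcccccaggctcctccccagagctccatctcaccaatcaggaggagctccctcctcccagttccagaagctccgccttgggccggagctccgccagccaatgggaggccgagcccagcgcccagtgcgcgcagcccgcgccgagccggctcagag
Grhl3: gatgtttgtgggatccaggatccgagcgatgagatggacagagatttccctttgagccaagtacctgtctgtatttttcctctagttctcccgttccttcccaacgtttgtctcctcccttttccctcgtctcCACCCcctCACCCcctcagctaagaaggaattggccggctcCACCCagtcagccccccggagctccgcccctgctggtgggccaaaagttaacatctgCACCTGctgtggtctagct
CACCTG stood 140 to 135 bases before the Elf3 start and 19 to 14 bases before the Grhl3 start, and was not in this window of either Grhl1 start. It was found in 3 of the 6 promoters of the 4 genes and in 17.2% of all 32851 promoters in the table. CACCC was in 4 of the 6 and in 52.0% of all. The downstream Grhl1 start, not shown, had it 81 to 77 and 29 to 25 bases before the start, on the other strand. The Grainyhead-like letters AACNGGTT (1.79% of all promoters) and the Ets letters CCGGAAG (6.91%) were in none of the 6. The motifs do not overlap one another in the sequences shown. These matches describe letters in a window and are no measurement of binding.

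Klf5 had the lowest adjusted p of the factors. It read -0.18 and -1.19 in adult and 1.94 and 2.77 in embryonic spheres, with both embryonic arrays above both adult arrays. The log2 fold change was 3.04 (SE 0.50, 95% interval 1.77 to 4.31, adjusted p = 0.0126). The single probe of Ovol1 read 0.28 in adult sample 1, well above background, and -4.31 and -1.74 in embryonic spheres, neither well above background. On adult array 2 its spot was marked as an outlier and left out, so that the probe did not reach the 2 detected arrays of a group that a test required. With outlier spots kept, Ovol1 was tested and lower in embryonic spheres (log2 fold change -3.52, SE 0.86, adjusted p = 0.0207). A probe bright on adult and dim on embryonic arrays moves with the sensory receptor probes, which were detected at 51.4% and 23.2% against 6.10% and 2.26%, and their part in the Ovol1 values was not tested.

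Trp63 gave different answers on its 2 probes. The brighter one read 1.88 and 2.94 in adult and 3.14 and 4.32 in embryonic spheres. These groups did not overlap, but adult array 2 lay only slightly below embryonic array 1, and the log2 fold change of 1.32 (SE 0.57, 95% interval -0.13 to 2.78) did not pass the test (adjusted p = 0.101). The dimmer probe, listed for another transcript of the gene, read -1.87 and -1.10 in adult and 1.60 and 2.15 in embryonic spheres, a clear separation. In the fit over all 27049 probes it rose by 3.36 (SE 0.44, 95% interval 2.26 to 4.46, adjusted p = 0.00761). The mean of both probes was called (log2 fold change 2.34, adjusted p = 0.0183). The files used here hold no probe sequences, so which p63 isoforms each probe reads is not known, and the difference between the probes was not tested.

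Esrp1 read -0.18 in both adult and 1.54 and 2.53 in the embryonic samples. It rose by 2.21 (SE 0.42, 95% interval 1.15 to 3.28, adjusted p = 0.0155). A dimmer Esrp1 probe read -1.42 and -2.40 in adult and -1.77 and -1.01 in embryonic spheres, which overlapped (log2 fold change 0.52, SE 0.50, adjusted p = 0.405 over all probes), and adult array 2 was not well above background there. Its paralog Esrp2 read -0.89 and -0.58 in adult and -0.01 and 1.64 in embryonic spheres and did not pass the test (log2 fold change 1.55, SE 0.60, adjusted p = 0.0767). Of 7 genes with splice forms known to depend on Esrp proteins, 4 were higher in total signal and none lower, and none had an unadjusted p under 0.05 downward in limma, beside 34.9% higher over all genes. The count depended on the setting, with 1 higher after centring on the tested genes, 1 without embryonic array 2, none without adult array 1, without adult array 2, without the filter on dim probes or centred on the epithelial markers, and 1 lower in the deposited table and for the mean of probes. They were led by Enah (log2 fold change 2.13), a regulator of actin filaments, Arhgef11 (1.95) and Ctnnd1 (1.45), which encodes p120-catenin. The array signals were not taken to separate splice forms.

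**Figure D2:**
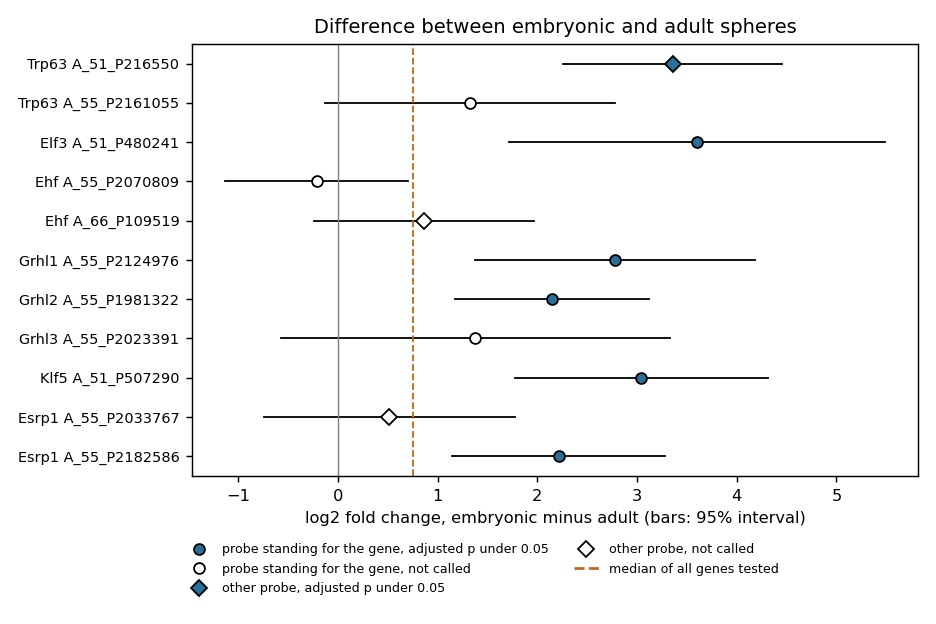
Log2 fold change, embryonic minus adult, with its 95% interval for the 11 tested probes of 8 factors. Circles are the probes that stand for a gene, diamonds are second probes, filled symbols passed an adjusted p of 0.05, and the dashed line is the median of all genes tested, 0.75. The 5 called genes have intervals above that line, as has the dimmer Trp63 probe, and Elf3 is drawn as read, with its dim adult reading.

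Of 20 epithelial genes known to be regulated by these factors, all were tested, 14 rose and 1 fell. Their median log2 fold change was 1.66, while over all genes tested 34.9% rose and 17.4% fell, with a median of 0.75. The Notch ligand gene Jag2, a p63 target, was not well above background on either adult array. As read it was 20.9-fold higher on the embryonic arrays (adjusted p = 0.00985 in limma). Jag2, like Ap1m2 of this list, entered the test only through these arrays, where it was high, so this p-value is no independent support for its direction. In the processed signal it stood at least 6.52-fold higher there. This bound sets the mean of the bright group against a floor for each dim array. The floor is the dimmest detected probe there or, if higher, the reading of the probe itself. Such a bound holds for the processed signal only, and with normexp correction Jag2 was 2.25-fold higher (adjusted p = 0.0351 in limma). The p63 targets Perp, of desmosomes, and Krt5, the basal keratin, rose by 3.25 (SE 0.64) and 3.22 (SE 0.48). A second, dimmer Krt5 probe gave 1.29 (SE 0.48) and was not called in the limma fit over all probes (adjusted p = 0.0744). Krt14, which is commonly expressed with Krt5 and also a p63 target, fell by 1.91 (SE 0.46, adjusted p = 0.0241). Cdh1, the E-cadherin gene and a Grhl2 target, read 1.69 in both adult and 3.30 and 4.15 in the embryonic samples (log2 fold change 2.04, SE 0.39, adjusted p = 0.0156). Epcam did not pass the test (0.89, SE 0.42, adjusted p = 0.123). Of these 20 genes, 6 were higher and 1 lower once each array was centred on the median of the tested genes. Under that scaling the same 5 factors stayed called (adjusted p from 0.0267 to 0.0475 in limma). Of the 20 genes, 5 were higher with quantile normalization, 5 without the filter on dim probes and 18 with arrays centred on all probes.

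Among 20 other epithelial regulators, 15 were tested, 5 rose and 1 fell, and their median log2 fold change was 0.94. The share that rose was close to the 34.9% of all genes, and 3 rose and 1 fell (median 0.32) after centring on the tested genes. The pioneer factor gene Foxa1, detected on a single adult array, rose by 3.46 as read (SE 0.34, adjusted p = 0.00985) and by 1.95 with normexp correction. Rbm47, which encodes an RNA-binding protein, rose by 2.43 (SE 0.28), while its second probe gave 1.29 and was not called. Tfap2a, not well above background on either adult array, was at least 3.21-fold higher on 1 probe, and its other probe gave a log2 fold change of -4.19, so its direction is uncertain. The Tead cofactor gene Vgll1 was not detected on the embryonic arrays, a pattern that the sensory receptor probes share. It was lower there by at least 4.05-fold, and its adjusted p of 0.0107 in limma is for the difference as read. Vgll1 entered the test only through the adult arrays, and Foxa1, Tead3 and Tfap2a only through the embryonic arrays. Ovol2, the paralog of Ovol1, read 2.99 and 3.91 in adult and 4.27 and 4.47 in embryonic spheres and did not pass the test (0.92, SE 0.41, adjusted p = 0.107).

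The list that holds the Zeb and Snail repressors stayed near the values of all genes. Of 11 tested transcription factors of mesenchyme and of the transition from epithelium to mesenchyme, 3 rose and none fell. None had an unadjusted p under 0.05 downward in limma, and the median log2 fold change was 0.55. Over all genes tested 34.9% rose and 17.4% fell, with a median of 0.75, and 5 of the 11 lay above that median. Tcf4 (1.53, SE 0.41), Snai2 (1.50, SE 0.36, adjusted p = 0.0249) and Foxc2 (1.24, SE 0.40) rose, and none of the 11 was called in either direction after centring on the tested genes. Zeb1 read 0.75 and 1.64 in adult and 2.67 and 2.06 in embryonic spheres and did not pass the test (1.17, SE 0.44, adjusted p = 0.0714). Zeb2 gave 0.48 (SE 0.37, adjusted p = 0.301) on the probe that stood for it and -3.16 on its other probe, which was called in the fit over all probes, so no direction is given for it. Relatives of the factors that are expressed outside epithelium also rose in part. Of 13 tested, 8 were higher and none lower, beside the 34.9% higher and 17.4% lower of all genes. Their median was 1.24, beside 0.75 over all genes and 0.94 over the other epithelial regulators. They had no unadjusted p under 0.05 downward in limma. After centring on the tested genes 2 were higher and 1 lower. Ets2 (2.18, SE 0.31), Klf3 (2.09, SE 0.33) and Ubp1 (1.92, SE 0.40), a relative of the Grainyhead-like genes, led them. Ubp1 was not well above background on either adult array. Its adult readings still lay above the array floors, so its 3.79-fold difference is as read and is not a minimum.

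**Figure D3:**
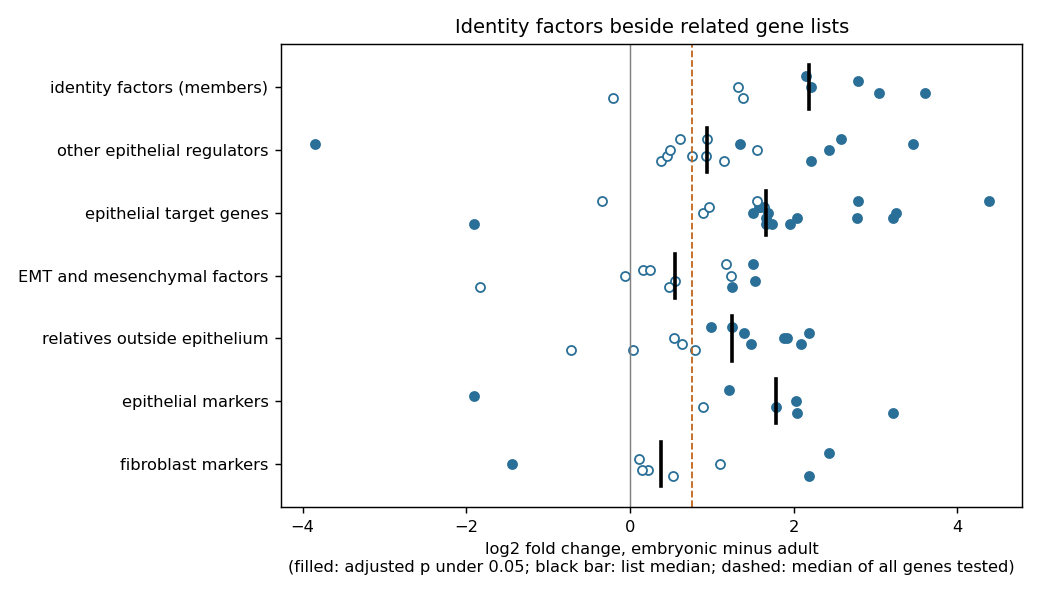
Log2 fold change, embryonic minus adult, of the tested genes in 7 lists, with 1 point per gene, filled points for an adjusted p under 0.05, black bars for list medians and a dashed line for the median of all genes tested. The identity factors have a median of 2.18, the epithelial markers 1.78, the epithelial target genes 1.66 and the relatives outside epithelium 1.24. The other epithelial regulators have 0.94, the mesenchymal factors 0.55 and the fibroblast markers 0.37.

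On the probes that stood for them, the factors also varied together within the embryonic group. All 8 tested factors were higher on embryonic array 2 than on embryonic array 1 on these probes. The median difference was 0.91 on the log2 scale, from 0.17 for Ehf to 2.25 for Grhl3. The second Ehf probe went the other way, with 0.40 on array 1 and -0.45 on array 2. Second probes of Trp63, Grhl2 and Esrp1 were higher on array 2. Over all genes tested 56.1% were higher on array 2, with a median difference of 0.08. The epithelial target genes went the same way in 16 of 20 cases (median 0.56), the epithelial markers in 5 of 7 (median 0.30), the other epithelial regulators in 10 of 15 (median 0.20) and the relatives outside epithelium in 10 of 13 (median 0.19), whereas 1 of 11 mesenchymal factors (median -0.51) and 0 of 8 fibroblast markers (median -0.62) did. Between the adult arrays 3 of 8 factors were higher on array 2, beside 0 of 7 epithelial markers, 7 of 8 fibroblast markers and 59.5% of all genes. These are 2 arrays on each side, so the differences are given with no test, and the share of epithelial cells in each sample was not measured. The 7 epithelial markers had a mean log2 fold change of 1.32, which Krt14 (-1.91) lowered. With each array centred on these 7 markers, Elf3 (2.28, adjusted p = 0.00185) and Klf5 (1.72, adjusted p = 0.0292) were called in limma. Grhl1 (1.46, adjusted p = 0.079), Esrp1 (0.89) and Grhl2 (0.82) were not. The Elf3 value rests on the adult array 2 reading of -3.87, which was not well above background. No floor was applied to it under this scaling. That scaling was chosen after seeing the data, and its fit gave every gene the same standard error of 0.64.

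**Figure D4:**
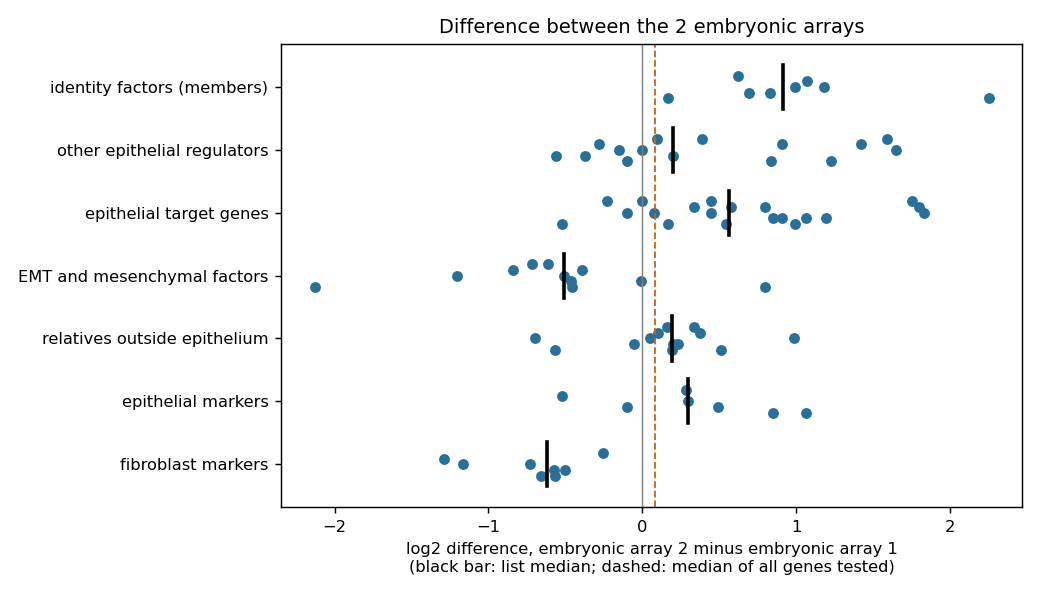
Log2 difference between the 2 embryonic arrays, array 2 minus array 1, for the tested genes of 7 lists, with 1 point per gene, black bars for list medians and a dashed line for the median of all genes tested, 0.08. On the probes that stand for the genes, all 8 identity factors lie above 0 and all 8 fibroblast markers below it. The second Ehf probe, not drawn, went the other way.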

How the data were processed

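The 4 scanner files hold intensity per spot, made by the authors with Agilent Feature Extraction 10.7.3.1 per the file headers, as background-subtracted processed signal without a step between arrays. The deposited table of processed values, also intensity and linear, was used as an alternative only (processing not given in the sources used here).

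Each array's log2 processed signal was set relative to its 75th percentile over non-control probes. Control spots and spots marked as outliers (185 and 2756 on the adult, 120 and 95 on the embryonic arrays) were left out, and no spot was saturated. Through RefSeq accessions 28026 probes (50.3%) were named from the GRCm38.p6 gene table. Probes well above background on both arrays of a group were tested, and the brightest, those detected on all 4 arrays first, stood for its gene. The difference, embryonic minus adult, was estimated by limma 3.58.1 in R 4.3.3 (lmFit, eBayes) over 13667 genes, without covariates, with Benjamini-Hochberg adjustment at 0.05, and the fit was tested on simulated data. Members and gene lists were chosen with earlier results of these data known. All members are named, beside up to 3 called genes per list and direction and 8 genes fixed by name. Normexp (offset 50) used the median spot signal.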

Additional observations from a re-analysis of the deposited data

How the results depend on the processing

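None of the 5 factors called higher turned its sign under 19 alternatives (18 for Elf3, which was not tested when detection on all 4 arrays was required), but sizes moved. No alternative used the second Grhl2 probe, which went the other way. Centred on all probes the log2 fold changes of the 5 factors were 3.38 (Grhl2) to 4.83 (Elf3), and with normexp 1.19 (Elf3) to 1.81 (Klf5). With dim readings raised to the array floor, an alternative chosen after seeing the data, the same 5 factors and 5680 genes (77.1% higher) were called. Of 13667 genes, 7140 were called in the fit reported, and 5 factors higher and none lower. With normexp correction 3523 genes were called, with arrays centred on all probes 11527 (85.3% higher, against 66.7%), centred on the tested genes 3817 (27.3% higher), centred on the epithelial markers 3669, and without a filter on dim probes 2685 (33.4% higher). The median log2 fold change of all genes, 0.75, became 0.42, 1.98 and 0.14 under the first 3 of these, 0.31 with quantile normalization and 0.29 in the deposited table. With probes detected on all 4 arrays 94.0% of calls were higher. Without the filter 2 factors were called higher, with Elf3, Grhl1 and Esrp1 at adjusted p of 0.0509, 0.0506 and 0.0507, and 2 after centring on the epithelial markers. With outlier spots kept 1 factor (Ovol1) was called lower. Leaving out 1 array gave 0 to 5548 genes and 0 to 6 factors called higher: none in limma without adult array 1 or adult array 2 (5600 and 6020 genes at an unadjusted p under 0.05), 6 without embryonic array 1 and 4 without embryonic array 2, where Elf3 had an adjusted p of 0.0573. Arms of 1 array were assumed to vary like the other group.

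The replicate numbers share only a number (deviations of same-numbered arrays correlated at 0.07 across genes). With the replicate number as a block, 6737 genes and 6 factors were called, Trp63 with an adjusted p of 0.0305. Trp63 was also called with normexp (adjusted p = 0.0474), centring on all probes (0.000534) and an intensity trend (0.0346). On the gene's dimmest tested probe Esrp1 was not called (adjusted p = 0.391).

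The sign turned for Ehf to 0.078 with normexp, 0.060 with quantile normalization, 1.02 centred on all probes, 0.45 in the deposited table, 0.33 for the mean of its probes, 0.86 for its dimmer probe and 0.14 without adult array 2 (leaving out 1 array gave -0.56 to 0.14). Zeb2 turned to -0.14 centred on the tested genes, -1.34 for the mean and -3.16 for the dimmer of its probes. Centred on the epithelial markers, Trp63 was at -0.0017, Ovol2 at -0.40, Zeb1 at -0.15, Zeb2 at -0.85 and Epcam at -0.43. The cause of these changes was not tested. Signal near background limits what can be said of Elf5, Ovol1 and adult Elf3, and 2 arrays per group limit all results.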
